A study of Mus musculus with 12 samples.

Results

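The set described here is the spliceosome and SR protein genes: the protein-coding genes of GENCODE vM39 whose symbol begins with Srsf, Snrp, Prpf, Sf3a, Sf3b or U2af. The symbol rule gave 49 of 21738 protein-coding genes, and the rule itself uses symbols alone and no measured value. The promoter window reached 2 kb to either side of the gene's canonical transcription start site (TSS), and a gene was counted as listed in a library where a deposited peak overlapped that window by at least 1 base. The members fell into 12 SR protein genes, 8 genes of the Sm core, 4 genes for proteins particular to the U1 or U2 particle, 9 genes of SF3a and SF3b, 3 U2AF genes and 13 PRPF genes. Mouse genes whose symbol begins with Snrnp, such as the one for U1-70K, do not meet the rule.

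The study mapped chromatin in c-Kit+ cells of mouse bone marrow, which the labels call haematopoietic stem and progenitor cells, in 12 libraries with 1 library per condition. Every culture, vector controls included, received a retrovirus for BAP1, the enzyme that removes ubiquitin from histone H2A, together with a retrovirus for ASXL1, its cofactor, or an empty vector. The 1-590 set held ASXL1 cut after residue 590, its mutants 10RA (labelled condensation-impaired) and 25RA (condensation-defective), and a vector control; the 1-1067 set held ASXL1 cut after residue 1067, its charge-neutralized mutants 34DN and 36EQ, and a vector control of its own. H2AK119ub, the ubiquitinated H2A that Polycomb repressive complex 1 makes, was mapped by CUT&RUN in these 8 conditions, and BAP1 and ASXL1 by ChIP-seq in 1-590 and 10RA. The genotype label is mock throughout, and the labels state neither strain nor age. BAP1 and ASXL1 came from retroviruses, so these are cells with added protein and not cells with an edited Asxl1 gene. For the ChIP libraries the sample descriptions name antibodies to BAP1 or ASXL1, whereas the protocol names an antibody to the HA tag. Peak names in 3 lists (25RA, 34DN, 36EQ) use codes that differ from the titles, and the identity of these mutants rests on the sample titles. The peak lists hold no expression values, so cell identity could not be checked against expressed markers.

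The spliceosome removes introns from pre-mRNA. The U1 particle binds the 5′ splice site, SF1 and the U2AF pair mark the branch point and the 3′ splice site, the U2 particle with SF3a and SF3b then takes the branch point, and the PRPF proteins serve mostly in the later U4/U6.U5 and catalytic steps. SR proteins bind exons and help recruit these particles, and the Sm proteins form the ring on which the U1, U2, U4 and U5 particles are built. In blood, SRSF2, SF3B1, U2AF1 and ZRSR2 are recurrently mutated in myelodysplastic neoplasms, in which truncating ASXL1 mutations also recur.

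Most members have the CpG-rich promoter of a housekeeping gene. By a rule of at least 50% G+C and an observed to expected CpG ratio of at least 0.6 in the 1001 bases around the TSS, 43 of the 49 members were CpG-rich, beside 10015 of all 21738 genes. The 6 members that did not meet the rule were Sf3b5, Prpf18, Srsf12, Snrpn, Snrpa1 and Srsf19. Sequences from each kind of promoter are shown because the H2AK119ub results below mostly divide along them. Prpf18 and Snrpa1, which were listed in 1-590, are exceptions. Every CpG is in capitals, 5′ to 3′ on the gene's strand, from GRCm39. The stretches of Sf3b1, U2af1, Prpf8 and U2af2 lie under the H2AK119ub peak of the 1-590 library and hold its summit, taken within 150 bases of it and trimmed to bases outside annotated UTRs. That of Sf3b1 (chr1:55066291-55066525, minus strand) starts 129 bases downstream of the TSS, in coding sequence of an exon and the intron after it, and holds 33 CpGs. Those of U2af1 (chr17:31877867-31878077, minus strand, 17 CpGs) and Prpf8 (chr11:75377422-75377619, plus strand, 11 CpGs) end at the base before the TSS, and that of U2af2 (chr7:5064310-5064609, plus strand, 20 CpGs) ends 533 bases upstream of it.
Sf3b1: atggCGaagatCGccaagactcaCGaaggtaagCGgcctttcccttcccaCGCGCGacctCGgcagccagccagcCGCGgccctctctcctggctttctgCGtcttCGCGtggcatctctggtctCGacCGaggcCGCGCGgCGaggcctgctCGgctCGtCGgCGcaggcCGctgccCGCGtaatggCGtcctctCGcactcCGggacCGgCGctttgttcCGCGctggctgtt
U2af1: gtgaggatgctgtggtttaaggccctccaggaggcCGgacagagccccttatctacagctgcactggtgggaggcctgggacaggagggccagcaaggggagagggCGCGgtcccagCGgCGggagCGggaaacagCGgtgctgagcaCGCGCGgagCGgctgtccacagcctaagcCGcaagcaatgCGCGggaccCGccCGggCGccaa
Prpf8: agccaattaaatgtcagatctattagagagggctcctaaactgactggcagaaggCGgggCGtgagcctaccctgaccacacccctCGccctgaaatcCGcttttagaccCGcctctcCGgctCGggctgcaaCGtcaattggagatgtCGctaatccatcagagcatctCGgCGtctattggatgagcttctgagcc
U2af2: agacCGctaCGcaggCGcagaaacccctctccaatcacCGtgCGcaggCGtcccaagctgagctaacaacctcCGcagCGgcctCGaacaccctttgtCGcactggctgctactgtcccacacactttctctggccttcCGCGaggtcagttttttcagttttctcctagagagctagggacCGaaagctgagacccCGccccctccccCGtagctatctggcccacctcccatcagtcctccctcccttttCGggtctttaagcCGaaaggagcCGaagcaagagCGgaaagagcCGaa

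Of the 4 members with no promoter peak in the 1-590 set, 3 are shown by the 200 bases before the TSS. They are Srsf19 (chrX:80501728-80501927, minus strand, 1 CpG), Sf3b5 (chr10:12880887-12881086, plus strand, 2 CpGs) and Snrpn (chr7:59654938-59655137, minus strand, 4 CpGs). Sf3b5 did have peaks of the 1-590 set farther inside the gene, described below.
Srsf19: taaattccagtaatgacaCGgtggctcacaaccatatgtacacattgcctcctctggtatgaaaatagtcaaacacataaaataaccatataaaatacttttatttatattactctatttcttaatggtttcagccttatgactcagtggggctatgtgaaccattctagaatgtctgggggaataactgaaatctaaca
Sf3b5: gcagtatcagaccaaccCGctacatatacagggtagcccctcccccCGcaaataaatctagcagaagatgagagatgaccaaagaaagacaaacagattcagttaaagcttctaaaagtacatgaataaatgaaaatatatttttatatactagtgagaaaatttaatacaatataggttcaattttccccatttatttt
Snrpn: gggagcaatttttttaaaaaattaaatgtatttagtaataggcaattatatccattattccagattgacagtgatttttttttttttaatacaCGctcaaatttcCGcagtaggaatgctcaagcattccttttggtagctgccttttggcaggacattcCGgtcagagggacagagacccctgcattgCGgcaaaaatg

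The window from 250 bases before to 50 after the TSS was also searched on both strands for short motifs. The letters CCGGAAG, the core bound by ETS factors, were in 17 of 49 members (34.7%), beside 10.3% of all promoters and 17% of CpG-rich ones, among them Snrpe, Prpf19, Sf3a1, Srsf11 and Snrpb2. The GC box GGGCGG was in 27 members (55.1%, beside 42.5% of all and 68.2% of CpG-rich promoters), and CCAAT in 15 (30.6%, beside 39.9% of all and 38.9% of CpG-rich promoters). The letters TATAAA were in 4 members, Prpf4b, Sf3b5, Snrpg and Srsf19 (8.16%, beside 13.2% of all and 6.7% of CpG-rich promoters). A match is a description of the letters and not a bound site.

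Depth and peak number set what each list can show. The lowest local background in a list, in fragments per base, stands here for the depth of a library: it was 2.06 in 1-590, 1.72 in 10RA, 1.86 in 25RA and 0.908 in the vector control of that set, and between 2.17 and 2.92 in the 1-1067 set. The 1-590 set nevertheless held 20124 to 33863 peaks per list and the 1-1067 set 5307 to 6310. Peaks were kept down to a p of 0.001 whatever their q, so a peak can have a large q. Levels below are summit levels, the number of fragments at the summit relative to the genome background of its library. They describe each library on its own scale: a change of the mark over the whole genome is not measured by them. Intervals, here exact Poisson for summit levels and Wilson for shares of genes, are at 95% and cover counting error only, and with 1 library per condition no difference between conditions has a replicate check or a test.

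In the 1-590 set, H2AK119ub peaks lay at the promoters of most splicing genes. In the 1-590 library 44 of the 49 members were listed (89.8%, interval 78.2 to 95.6), beside 55.2% of all genes. In 10RA 33 were listed (67.3%, 53.4 to 78.8), beside 41.4% of all genes, in 25RA 34 (69.4%, 55.5 to 80.5), beside 47.8%, and in the vector control 31 (63.3%, 49.3 to 75.3), beside 40.5%. The shares of the members were thus higher than those of all genes in each of the 4 libraries. Taken over all 49 members, those without a CpG-rich promoter included, they were near the shares of genes with a CpG-rich promoter. Those were 87.3% in 1-590, 65.1% in 10RA, 74.5% in 25RA and 67.2% in the vector control. Every member peak in these 4 libraries had q of 0.05 or less.

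**Figure D1:**
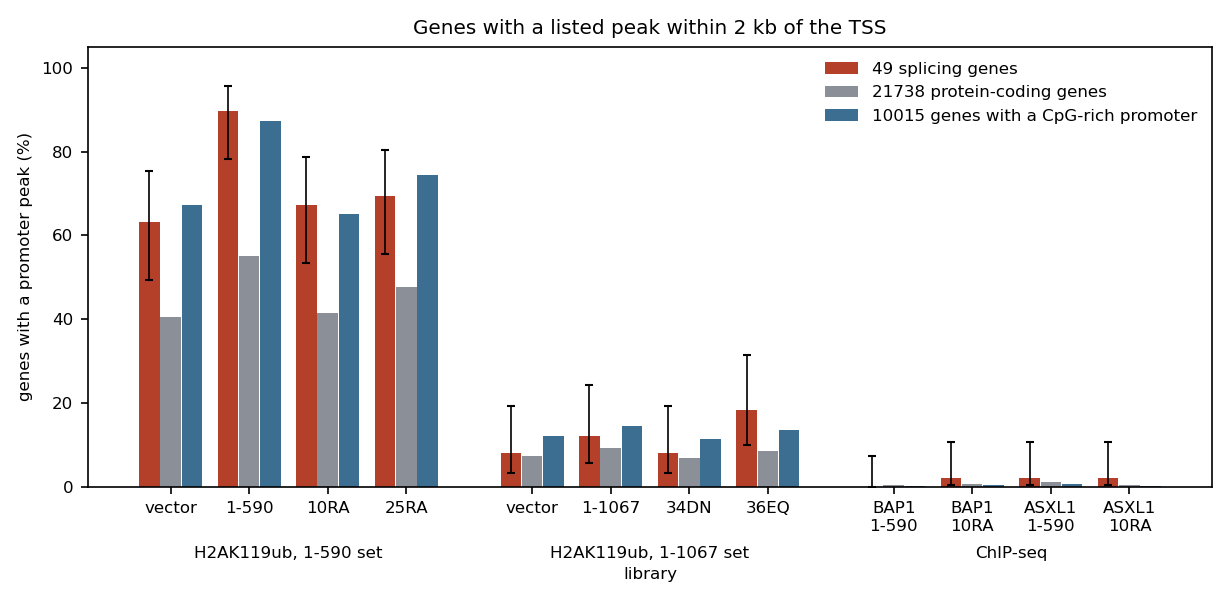
Share of genes with a listed peak within 2 kb of the TSS (y axis, percent) in each of the 12 libraries (x axis), for the 49 splicing genes, all 21738 protein-coding genes and the 10015 genes with a CpG-rich promoter. Whiskers are 95% Wilson intervals of the members' share. Over all 49 members, CpG-rich or not, that share reaches 89.8% in 1-590 and stays close to the CpG-rich genes in the 1-590 set.

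Among the 43 CpG-rich members, 42 were listed in 1-590 (97.7%, beside 87.3% of all CpG-rich genes) and 33 in 10RA (76.7%, beside 65.1%). In 25RA 33 were listed (76.7%, beside 74.5%) and in the vector control 30 (69.8%, beside 67.2%). Like for like, the members' share was thus above that of CpG-rich genes, mostly in 1-590 and 10RA. This difference was not tested. Snrpb2, for a protein of the U2 particle, was the CpG-rich member that 1-590 lacked, and it had peaks in 10RA (summit level 7.55) and 25RA (8.6). Of the 6 members without a CpG-rich promoter, 2 were listed in 1-590, namely Prpf18 and Snrpa1. Across both kinds of promoter, 14 members share their promoter region with an opposite-strand coding gene that starts within 1 kb, such as Srsf2 with Mfsd11, Snrpd2 with Qpctl and Sf3a2 with Plekhj1. All 14 were listed in 1-590, as were 30 of the other 35 members, and in the vector control the counts were 11 of 14 and 20 of 35. The 6 members without a CpG-rich promoter are all among the 35, so these counts cannot be told apart from a division by CpG content. The same counts over all genes were not made. A peak at such a promoter cannot be assigned to either gene.

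Of the 49 members, 24 were listed in all 4 libraries of the 1-590 set (49%), beside 26.7% of all genes. These 24 include Prpf8, Prpf19, Sf3a1, Sf3b2, U2af1, Snrpe and Srsf2. A further 5 were listed in 1-590 alone (10.2%, beside 5.65% of all genes): Prpf3, Prpf18, Prpf40b, Srsf6 and U2af1l4. The 5 members listed with all 3 ASXL1 forms but not with the vector (10.2%, beside 5.34% of all genes) were Sf3b1, Srsf1, Srsf4, Snrpd2 and Prpf39. Another 4, Sf3b5, Snrpn, Srsf12 and Srsf19, were listed in none of the 4 (8.16%, beside 35.4% of all genes).

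**Figure D2:**
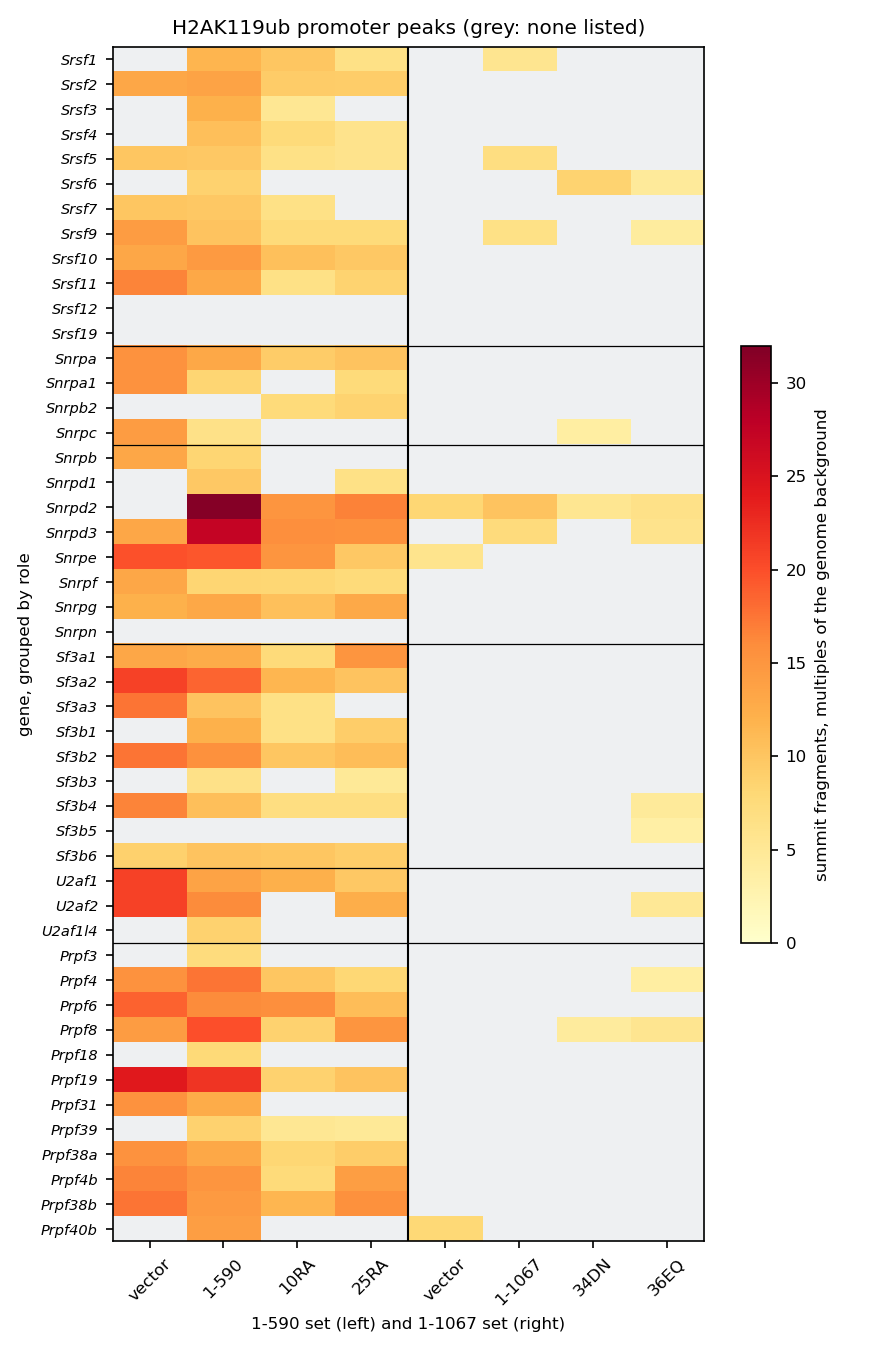
Summit level (colour scale, fragments at the summit relative to the genome background of its library) of the strongest H2AK119ub promoter peak of 48 members (rows, grouped by role) in the 8 H2AK119ub libraries (columns, each set led by its vector control). Grey cells have no listed peak; 23 rows are filled across the whole 1-590 set, and 34 rows are empty in the 1-1067 set.

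The SR protein genes were listed at 10 of 12 in 1-590, 9 in 10RA, 7 in 25RA and 6 in the vector control. Srsf2 encodes an SR protein that recognises exons and is a recurrent site of mutation in myeloid neoplasms. Its summit level was 13.6 in 1-590 (interval 9.04 to 19.7), 9.3 in 10RA (5.31 to 15.1), 9.14 in 25RA (5.33 to 14.6) and 13.2 in the vector control (6.83 to 23.1). The 4 intervals overlapped, but the levels come from different places. The summit lay 78 bases downstream of the TSS in 1-590, 160 in 10RA and 781 in 25RA. In 1-590 its peak was 1679 bases wide, beside a median of 569 bases over the members. In the vector control the Srsf2 peak was 202 bases wide with its summit 1535 bases downstream of the TSS, so that with a 1 kb window the gene was no longer listed there.

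Srsf1, the founding SR protein, had a summit level of 11.7 (7.47 to 17.3) in 1-590, 9.88 (5.75 to 15.8) with 10RA and 6.45 (3.33 to 11.3) with 25RA. These levels come from different places. The summit lay 128 bases downstream of the TSS in 1-590, 309 in 25RA and 1203 in 10RA. Srsf1 had no listed peak in the vector control. The nearest peak of the vector control lay 2090 bases from its TSS, just outside the window, so its absence there rests on the window's width. Srsf3 was listed in 1-590 at 12.1 and in 10RA at 5.23, and Srsf4 in 1-590 at 10.7, in 10RA at 7.55 and in 25RA at 5.92. Neither was listed in the vector control. The Srsf4 summit lay 671 bases downstream of the TSS in 10RA, 22 downstream in 25RA and 18 upstream in 1-590. Srsf6 was listed in 1-590 alone, at 8.74. Srsf7 was listed at 9.71 in 1-590, 6.39 in 10RA and 9.92 in the vector control. Srsf5, Srsf9, Srsf10 and Srsf11 were listed in all 4, and Srsf11 ranked among the 5 member peaks of highest fold in the vector control, with a summit level of 16.5 there and 13.1, 6.39 and 8.6 in 1-590, 10RA and 25RA. Thus 10RA was the lowest of the 4 libraries at Srsf11, and the vector control the highest.

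The Sm core genes, for the ring around the small nuclear RNAs, were listed at 7 of 8 in 1-590, 5 in 10RA, 6 in 25RA and 5 in the vector control. The member peak with the most fragments was at Snrpd2, for SmD2, with 65 fragments in 1-590, a summit level of 31.6 (24.4 to 40.2). With 10RA the gene was at 15.1 (9.87 to 22.1) and with 25RA at 16.7 (11.3 to 23.7), and it had no listed peak in the vector control of that set. The interval of 1-590 lay above those of both mutants, as a comparison of these libraries and not of replicated conditions. Snrpd2, Snrpe, Prpf4, Prpf8 and Prpf19 are described because their folds in 1-590 were the 5 highest among the members, which favours a high value in that library. The summit lay between 271 and 305 bases upstream of the TSS in the 3 libraries, on the side of Qpctl.

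Snrpd3, for SmD3, had 27.2 (20.5 to 35.3) in 1-590, 15.7 (10.3 to 22.8) in 10RA, 15.6 (10.4 to 22.4) in 25RA and 13.2 (6.83 to 23.1) in the vector control. The 1-590 library was the highest of the 4, with an interval that overlapped the others. Snrpe, for SmE, had the peak of highest fold among the members in both 1-590 and 10RA, with levels of 19.4, 15.1, 9.68 and 19.8 in 1-590, 10RA, 25RA and the vector control. Here the vector control matched 1-590 and 25RA was lowest. Snrpg had 13.1, 10.5, 12.9 and 12.1 in the same order, the smallest spread among these Sm genes. Snrpf was also listed in all 4, at 8.26, 8.13, 7.53 and 13.2. Snrpb was listed in 1-590 (8.26) and the vector control (13.2) and in neither mutant, and Snrpd1 in 1-590 (9.71) and 25RA (6.45). Snrpn, an imprinted gene of the Prader-Willi region expressed mainly in brain, had no H2AK119ub peak within 725804 bases of its TSS in any of the 8 libraries.

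Of the 4 genes for proteins of the U1 or U2 particle, Snrpa (of the U1 particle) was listed in all 4 libraries at 13.1, 9.3, 10.2 and 15.4 in 1-590, 10RA, 25RA and the vector control. Snrpa1 (of the U2 particle) was at 8.26, 7.53 and 15.4 in 1-590, 25RA and the vector control, and Snrpc (of the U1 particle) at 6.31 in 1-590 and 14.3 in the vector control. All 3 were higher in the vector control than in 1-590 on this scale, with overlapping intervals. This was also the direction at 5654 of the 8143 protein-coding genes listed in both. Snrpb2 was the only member listed in a mutant of the 1-590 set and not in 1-590.

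The SF3a and SF3b genes encode the parts of the U2 particle that hold the branch point, and 8 of 9 were listed in 1-590, 7 in 10RA, 7 in 25RA and 6 in the vector control. Sf3b1, the large subunit and a recurrent site of mutation in myelodysplastic neoplasms with ring sideroblasts, was at 12.1 (7.86 to 17.9) in 1-590, at 6.39 (3.19 to 11.4) with 10RA and at 9.14 (5.33 to 14.6) with 25RA, and was not listed in the vector control. Its summit lay 183 to 218 bases downstream of the TSS in all 3, within the CpG-rich stretch printed above. Sf3a1 had 12.6, 7.55, 15.1 and 13.2 in 1-590, 10RA, 25RA and the vector control, and was 1 of only 2 members whose level in 25RA exceeded that in 1-590. The summit was 136 to 168 bases downstream of the TSS with the 3 ASXL1 forms. The vector control listed 2 peaks in the window, a stronger one with its summit 1463 bases upstream and another that covers the TSS. Sf3a2, Sf3b2, Sf3b4 and Sf3b6 were listed in all 4. Sf3a3 was missing in 25RA alone, and Sf3b3 was listed at 6.31 in 1-590 and 4.84 in 25RA.

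Sf3b5 was the exception in this group. Its canonical TSS is CpG-poor, with 5 CpGs in 1001 bases, and no library of the 1-590 set listed a peak within 2 kb of it. All 4 libraries did list a peak inside the gene, with the summit 3092 to 3554 bases downstream of that TSS and summit levels of 12.1 in 1-590, 7.55 in 10RA, 10.2 in 25RA and 14.3 in the vector control. The annotated gene is a single exon, and these peaks overlap its coding sequence. With a window of 5 kb Sf3b5 was counted in all 4, so its absence rests on the window around the canonical TSS. Which start these cells use was not measured.

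U2AF recognises the 3′ splice site. U2af1, the small subunit and a recurrent site of mutation in myeloid neoplasms, was listed in all 4 libraries, at 13.6 (9.04 to 19.7) in 1-590, 12.2 (7.55 to 18.7) in 10RA, 9.68 (5.74 to 15.3) in 25RA and 20.9 (12.6 to 32.7) in the vector control. Its summits lay 3 to 96 bases upstream of the TSS, and its intervals overlapped. U2af2, the large subunit, had 16 (11 to 22.5) in 1-590, 12.4 (7.84 to 18.6) in 25RA and 20.9 (12.6 to 32.7) in the vector control, and was not listed in 10RA. Its summits were farther out, 682 to 985 bases upstream. U2af1l4, a homologue of the small subunit, was listed in 1-590 alone, at 8.74.

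All 13 PRPF genes were listed in 1-590, and 9 of 13 in each of the other 3 libraries. Prpf3, Prpf18 and Prpf40b were missing in all 3 of those, Prpf31 in both mutants and Prpf39 in the vector control. Prpf8, the large U5 protein at the catalytic centre, had 19.9 (14.3 to 27) in 1-590, 8.72 (4.88 to 14.4) in 10RA, 15.1 (10 to 21.8) in 25RA and 14.3 (7.63 to 24.5) in the vector control. The 10RA library was lowest, and its interval overlapped that of 1-590 only at the edge. Prpf19, a ubiquitin ligase that acts in spliceosome activation, had 21.9 (15.9 to 29.2), 8.72 (4.88 to 14.4), 10.2 (6.15 to 16) and 24.2 (15.2 to 36.7) in the same order. Here 1-590 and the vector control were alike, and the interval of 10RA lay below both.

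Prpf4, a U4/U6 protein, had 17.5, 9.88, 8.07 and 15.4. Prpf38a and Prpf38b, of the complex that precedes catalysis, were listed in all 4, with Prpf38a at 13.1, 8.13, 9.14 and 15.4. Prpf31, which holds the tri-particle together, was listed at 12.6 in 1-590 and 15.4 in the vector control and in neither mutant. Prpf3 was listed at 7.28 and Prpf18 at 7.77 in 1-590 alone. For Prpf18 the nearest peak of 25RA lay 2051 bases from the TSS. Prpf40b, at 14.1, had the highest level of the 5 members listed in 1-590 alone.

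Setting 1-590 against its vector control, 13 members were listed in 1-590 and not in the vector control (26.5%), beside 17.8% of all genes, and 0 the other way, beside 3.03%. By fold within the 1-590 list the first 8 of the 13 were Snrpd2, Srsf3, Prpf39, Sf3b1, Snrpd1, Srsf4, Srsf1 and Prpf3. Of the 18 members that the vector control lacked, 13 were listed in 1-590 (72.2%), beside 29.8% of all genes and 69.8% of CpG-rich genes that it lacked. The vector control has the lowest depth of its set. With 1-590 scaled down to that depth 43 members remained listed, against 31 in the vector control, and the corresponding shares of all genes were 49.2% and 40.5%. With lists of equal length the counts were also 43 and 31. At the 31 promoters listed in both, the summit level was higher in 1-590 at 7 members and lower at 24, with a median ratio of 1-590 to vector of 0.856, beside 0.862 for all genes listed in both. More splicing genes were thus listed with 1-590, while shared peaks stood lower over the genome background than with the vector, as they did across all genes. The lowest listed level over all genes was itself higher in the less deep vector control, 5.51 beside 3.88 in 1-590. How far this bears on the comparison of levels was not tested.

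Setting the mutants against 1-590, 12 members were listed in 1-590 and not in 10RA (24.5%), beside 18.4% of all genes. Snrpb2 alone was listed the other way (2.04%), beside 4.53%. By fold the first 8 of the 12 were Prpf31, Snrpd1, Prpf3, Sf3b3, U2af2, Prpf18, Prpf40b and Snrpa1. Of the 16 members that 10RA lacked 75% were listed in 1-590, beside 31.4% of all such genes and 72.8% of CpG-rich ones. For 25RA the members were 11 (22.4%), beside 12.9% of all genes, led by Srsf3, Prpf31, Sf3a3, Srsf7, Prpf3, Prpf18, Prpf40b and Snrpc. Again Snrpb2 alone was listed the other way (2.04%), beside 5.53%. These 11 were 73.3% of the 15 members that 25RA lacked, beside 24.7% of all such genes and 66.4% of CpG-rich ones. Among genes that a mutant lacked, the share of members listed in 1-590, CpG-rich or not, was thus close to that of CpG-rich genes.

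At the 32 members listed in both 1-590 and 10RA, the summit level was lower in 10RA at all 32, with ratios from 0.399 to 0.985. The level was higher in 10RA at 18.9% of all genes listed in both and at 15.1% of CpG-rich ones. The median ratio of 10RA to 1-590 was 0.644 over the members, 0.744 over all genes and 0.709 over CpG-rich genes. In 25RA the level was higher than in 1-590 at 2 of 33 members, Sf3a1 and Prpf38b, beside 21.9% of all genes, and the median ratio was 0.692, beside 0.791 for all genes and 0.767 for CpG-rich ones. Over the 30 members listed in both mutants, 25RA was higher at 15 and the median ratio was 1. These comparisons share the 1-590 library, so they are not separate observations of it, and the lower levels in the mutants run through all genes.

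**Figure D3:**
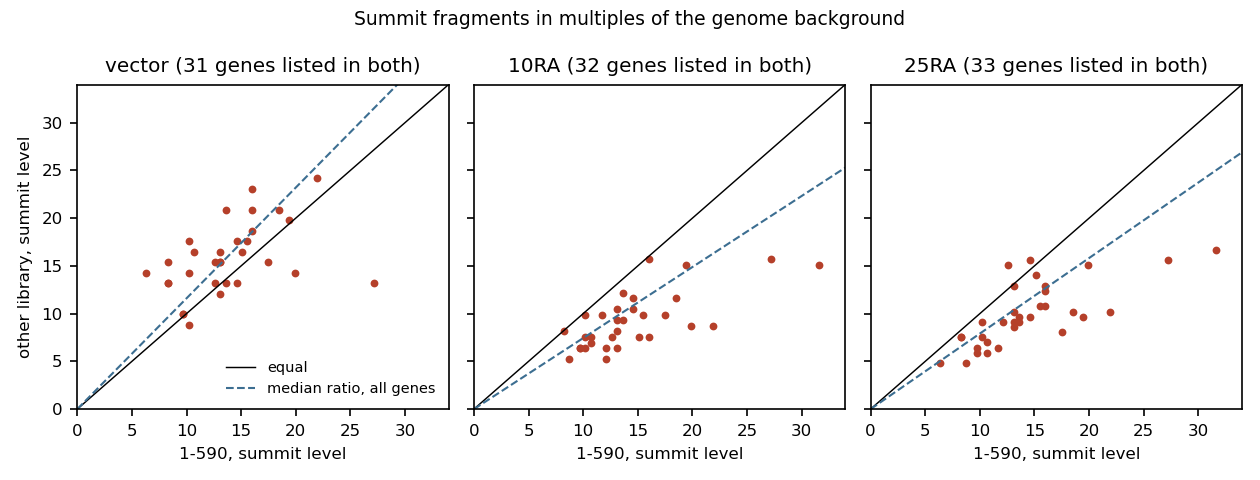
Summit level of each shared member in 1-590 (x axis) against the vector control, 10RA and 25RA (y axis, 1 panel each), relative to the genome background of its library. The solid line marks equal levels and the dashed line the median ratio of all genes; all 32 points for 10RA lie below the solid line, and 24 of 31 for the vector control lie above it.

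Peaks at the members sat close to the TSS. In 1-590 the summit lay within 500 bases of the TSS at 40 of 44 members (90.9%), beside 76.1% of all listed genes and 81.5% of CpG-rich ones, at a median of 59 bases downstream. The shares were 84.8% in 10RA, beside 69% of all and 75.4% of CpG-rich genes, and 91.2% in 25RA, beside 70.5% and 76.7%. In the vector control the share was 74.2%, beside 75.4% of all and 80.9% of CpG-rich genes, so the members were not closer than other genes there. The summits farthest from the TSS in 1-590 were those of Prpf4b, 971 bases upstream in the stronger of its 2 peaks, and Sf3a2, 763 bases downstream. These distances are from the canonical TSS. The RefSeq start of Sf3a2 lies 781 bases downstream of it, near that summit. Of 41 members with a RefSeq start placed, 32 had it within 200 bases of the canonical TSS. The smallest distance in 1-590 was at Snrpc, 9 bases upstream.

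**Figure D4:**
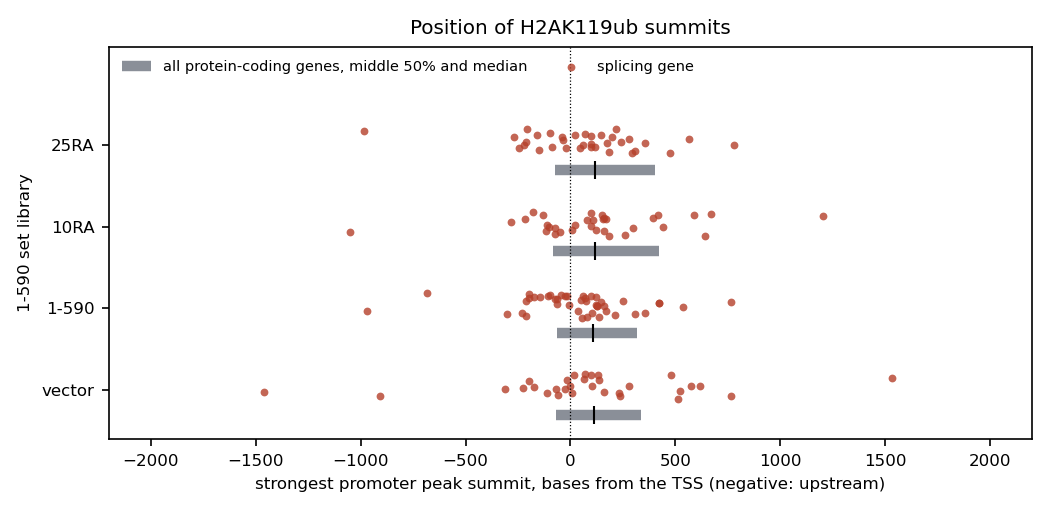
Distance from the TSS to the summit of the strongest H2AK119ub promoter peak (x axis, bases, negative upstream) for each listed member (red points, spread vertically for legibility) in the 4 libraries of the 1-590 set (y axis). Grey bars give the middle 50% and black ticks the median of all listed genes; 40 of 44 points in 1-590 lie within 500 bases of the TSS.

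The local background under the peaks was low at the members. In multiples of the genome background its median was 1.84 in 1-590, 1.52 in 10RA, 1.6 in 25RA and 2.12 in the vector control, beside 2.47, 2.16, 2.22 and 2.73 for all listed genes. The summit levels themselves were no higher than those of all genes: the medians were 12.6 beside 13.1 in 1-590, 8.72 beside 10.5 in 10RA, 9.41 beside 10.8 in 25RA and 15.4 beside 16.5 in the vector control. The members therefore had a higher median fold over local background within each list, 5.13 beside 4.16 in 1-590 and 4.88 beside 4.17 in the vector control, at similar or lower summits. The difference from CpG-rich genes was smaller, their median fold being 4.5 in 1-590 and 4.31 in the vector control. Peaks elsewhere in the gene, beyond 2 kb from the TSS, were listed for 9 members in 1-590 (18.4%), beside 27.9% of all genes long enough to have such a part, and for 7 in the vector control (14.3%, beside 21.1%). Per megabase of such sequence the order in these libraries was the other way, on few member peaks. There were 11.4 peaks at the members and 10.5 over all genes in 1-590, and 8.88 and 6.32 in the vector control. CpG-rich genes also had 11.4 in 1-590. In 10RA and 25RA the members were lower per megabase too, at 8.88 beside 9.67 and 7.61 beside 12.1.

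In the 1-1067 set few members were listed, as few genes were. In 1-1067 there were 6 members (12.2%, interval 5.73 to 24.2), beside 9.21% of all and 14.6% of CpG-rich genes, among them Srsf5, Snrpd2, Srsf9, Srsf1 and Snrpd3. In 34DN there were 4 (8.16%), beside 6.96% and 11.3%: Srsf6, Snrpd2, Snrpc and Prpf8. In 36EQ there were 9 (18.4%, 9.98 to 31.4), beside 8.52% and 13.6%: Prpf8, Sf3b4, Snrpd2, Prpf4, Srsf9, Sf3b5, Srsf6, Snrpd3 and U2af2. In the vector control there were 4 (8.16%), beside 7.44% and 12%, among them Snrpe, Snrpd2 and Prpf40b. In total 15 members were listed in at least 1 library of this set (30.6%), beside 20.9% of all genes.

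Of the 23 member peaks in this set, 9 had q of 0.05 or less. The counts at that q were 3 in 1-1067 (6.12%, Srsf5 and Snrpd2 among them), beside 4.38% of all genes, and 1 in 34DN (2.04%, Srsf6), beside 3.43%. They were 2 in 36EQ (4.08%, Prpf8 and Snrpd2), beside 4.65%, and 3 in the vector control (6.12%, Snrpe, Prpf40b and Snrpd2), beside 3%. The members' shares at that q were near those of all genes. Snrpd2 was the one member listed in all 4 libraries of the set, at summit levels of 10.2 (6.36 to 15.4) in 1-1067, 5.41 (2.96 to 9.08) in 34DN, 6.33 (3.75 to 10) in 36EQ and 8.23 (5.27 to 12.2) in the vector control. With 3 libraries of the 1-590 set it was listed in 7 of the 8 H2AK119ub libraries, more than any other member, and no member was listed in all 8. The member peak of highest fold was Srsf5 in 1-1067, with a summit level of 6.92, and Srsf6 in 34DN, with 8.51.

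Against its vector control, 1-1067 had 4 members that the vector lacked (8.16%, beside 6.51% of all genes), namely Srsf5, Srsf9, Srsf1 and Snrpd3. It lacked 2 (4.08%, beside 4.74%), Snrpe and Prpf40b. Against 1-1067, 34DN gained 3 (6.12%, beside 4.27%), Srsf6, Snrpc and Prpf8. It lacked 5 (10.2%, beside 6.53%), among them Srsf5, Srsf9, Srsf1 and Snrpd3. Against 1-1067, 36EQ gained 6 (12.2%, beside 5.27%), Prpf8, Sf3b4, Prpf4, Sf3b5, Srsf6 and U2af2. It lacked 3 (6.12%, beside 5.96%), among them Srsf5 and Srsf1. Prpf8 in 36EQ was the only one of its 6 with q of 0.05 or less. Srsf12, Srsf19 and Snrpn had no promoter peak in any of the 8 H2AK119ub libraries.

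BAP1 and ASXL1 ChIP-seq listed almost no peaks at these promoters. BAP1 in 1-590 listed 0 of 49 members (interval up to 7.27%), beside 0.363% of all genes. BAP1 in 10RA listed Prpf39 alone, beside 0.552%, ASXL1 in 1-590 listed Sf3b5 alone, beside 1.07%, and ASXL1 in 10RA listed U2af1l4 alone, beside 0.455%. Each summit lay more than 1 kb from the TSS, 1858 bases upstream at Prpf39, 1527 downstream at Sf3b5 and 1813 downstream at U2af1l4, and each had a q above 0.05 (23.7%, 21.5% and 10.1%). None was listed with a 1 kb window or at q of 0.05 or less. The peak counted for U2af1l4 also lies in the promoter windows of Igflr1, Psenen and Gm49396. The coding TSS nearest its summit is that of Igflr1, so it cannot be assigned to U2af1l4. Binding at the other members was not detected in these lists, which does not show it absent.

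Other genes of the splicing machinery, in lists written from general knowledge, were also mostly listed. Of 103 such genes 100 were listed in 1-590 (97.1%), 65 in 10RA (63.1%), 76 in 25RA (73.8%) and 79 in the vector control (76.7%). In the same order the shares were 55.2%, 41.4%, 47.8% and 40.5% of all genes and 87.3%, 65.1%, 74.5% and 67.2% of CpG-rich genes. The 10RA and 25RA shares of the 103 genes were thus near those of CpG-rich genes. Their shares in 1-590 and the vector control lie above the intervals of the members' shares. Here the vector control listed more genes than 10RA, where for the members it listed fewer (31 and 33). These differences were not tested. The Sm-like Lsm genes were listed at 10 of 10 in 1-590 and 6, 8 and 6 in 10RA, 25RA and the vector control. Other spliceosome subunits and helicases were at 39 of 39, then 26, 27 and 30, and the SR kinases and SR-related genes at 17 of 19, then 9, 11 and 12. The hnRNP genes, for splicing regulators that often oppose SR proteins, were at 24 of 24, then 16, 22 and 23, so in the vector control nearly all hnRNP genes were listed. The exon junction complex and minor spliceosome genes were at 10 of 11, then 8, 8 and 8. The 7 Snrnp genes were at 6, 5, 6 and 5. Of 5 genes of these lists looked up by name, Zrsr2, the minor-intron counterpart of U2af1, was listed in 1-590 and in none of the other 3, whereas Luc7l2, Ddx41, Phf5a and Sf1 were listed in all 4.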

How the data were processed

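The data are 12 peak lists from ChIP-seq (4 libraries) and CUT&RUN (8 libraries), 1 per condition. Per the submitters' processing notes, the build was mm39 and the named software was MACS3 3.0.3, Bowtie2 2.5.4 and fastp 0.24.0, besides Picard and SAMtools. The deposited fold of each peak is a ratio of summit pileup to local background as the authors' peak caller gave it, and the deposited -log10 p and -log10 q are made within each library. The deposited score was read but enters no value. Fold and -log10 values served only within a list, for description, ranks and filters. Per the labels, spike-in reads of E. coli normalized the CUT&RUN data. The number of fragments at each summit came out whole from the deposited fold and p of 100% of peaks, within 0.1%, so the calls rest on whole fragments and no spike-in scale was applied to the levels. Use of a control library is not given in the sources used here.

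Peaks on the main chromosomes were placed on GRCm39 with GENCODE vM39, and none ran past a chromosome end. The genome background of a library is the lowest local background of its peaks. Python 3.11.15, pandas 2.3.3, NumPy 2.4.6 and SciPy 1.17.1 were used, and the overlap and recovery steps were tested on simulated data. No test between conditions was made, since each has 1 library. Named genes were Srsf2, Sf3b1, U2af1, U2af2, Srsf1, Prpf8, Sf3a1 and Snrpn, members with a ChIP peak, with no H2AK119ub peak or with one in every library, the 5 of highest fold per H2AK119ub library, up to 8 per pair and direction, the extremes of width and summit distance, and Zrsr2, Luc7l2, Ddx41, Phf5a and Sf1. Other members are named too; 1 member and 1 sequence that met these rules are counted but not reported here. The members and lists were chosen with earlier results of these data known, and the Snrnp list and the motif and CpG comparisons were added after values were seen. Alternatives were promoter windows of 1 and 5 kb, summits in the window, any annotated start, q of 0.05, lists of equal length and scaled depth.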

Additional observations from a re-analysis of the deposited data

How the results depend on the processing

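Each of 24 counts, the members listed in each library and the members listed in 1 library of a pair and not the other, was recomputed under 7 alternatives, and 25 of these values moved by more than 1.5 times. For the 4 libraries of the 1-590 set, the counts of listed members stayed within 1.5 times under all 7. At q of 0.05 or less, the BAP1 10RA, ASXL1 1-590 and ASXL1 10RA counts were 0 (all genes 0.106%, 0.221% and 0.101%), 1-1067 had 3 (4.38%), 34DN had 1 (3.43%) and 36EQ had 2 (4.65%). At that q, 1-1067 had 2 members that its vector control lacked (3.37%) and 3 that 34DN lacked (3.12%), 34DN had 1 (2.17%) and 36EQ had 1 (3.01%) that 1-1067 lacked. With a 1 kb window the same 3 ChIP counts were 0 (0.216%, 0.529% and 0.216%), and the 1-1067 vector control had 1 member that 1-1067 lacked (3.91%), as it did (1, beside 4.66%) with the summit required in the window. With a 5 kb window BAP1 10RA had 3 (all genes 1.78%), ASXL1 1-590 had 3 (3.18%), 34DN had 7 (9.27%), 10RA had 2 members that 1-590 lacked (5.47%) and 34DN had 6 that 1-1067 lacked (5.91%). With any annotated transcript start, BAP1 10RA had 3 (all genes 1.38%) and ASXL1 1-590 had 2 (2.53%). With lists of equal length, and with depth scaled to the lowest of the batch, the vector control had 1 member that 1-590 lacked, Snrpb (all genes 5.21% and 4.88%), and with scaled depth ASXL1 1-590 had 0 (0.557%).

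No paired analysis was possible because each condition has 1 library and no result comes from a test. The 3 ChIP peaks and 14 of the 23 member peaks of the 1-1067 set have q above 0.05. A missing narrow peak is not a missing mark. Scaled depth multiplies each summit and background by 1 factor and cannot add peaks, and it does not redo the peak calling. Differences between conditions cannot be told apart from differences between libraries.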
